A study of Mus musculus with 2 samples.

Results

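Blood endothelial cells of the mandibular lymph node that carried transcripts of Kit, Upp1, Inhbb or Pde1c were examined across all genes. The nodes were taken 24 h after a subarachnoid haemorrhage (SAH) or after sham surgery. These cells are called Kit and Aqp1 capillary members here, a capillary name that the values below do not settle. A barcode, the tag that marks 1 droplet and normally 1 cell, was a member if it had at least 500 detected genes, at most 10% mitochondrial UMIs, no Prox1 UMI, at least 1 Pecam1 UMI and at least 2 UMIs summed over Kit, Upp1, Inhbb and Pde1c. A UMI marks 1 captured RNA molecule. Members also had no UMI of Col13a1 or Esm1, at most 1 UMI of Gja5 and Sema3g together, and none of Fut7, Chst4 or Aqp7, which set apart other capillary, arterial, high endothelial and lipid-handling vessels. The rule selected 1014 of 11157 kept barcodes in the sham library and 995 of 11454 in the SAH library, 2009 of 22611 in all.

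SAH is a bleed between the membranes that cover the brain, modelled here by autologous blood infusion. Nodes from 20 mice of each group were pooled and digested, cells with CD45 were depleted, and cells that bound antibodies to CD31 or podoplanin were collected on magnetic beads for droplet sequencing. The submitters labelled both samples as lymphatic endothelium, but Prox1, which specifies lymphatic identity, was 0 in members by the rule. Each group was a single library, so no difference has a replicate check and no test was made. Mouse strain, sex and age are not given in the sources used here. Library and treatment cannot be told apart, so each difference is one between 2 libraries. Bracketed ranges are exact 95% intervals that cover counting error only.

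Capillaries are the thinnest blood vessels, where water, solutes and lipids pass between blood and tissue. KIT is the receptor of stem cell factor and is best known in mast cells and blood progenitors. AQP1 is a water channel of endothelial membranes, UPP1 splits uridine for pyrimidine salvage, INHBB is the subunit of activin B, and PDE1C degrades cyclic nucleotides. CXCL9 is an interferon-gamma-induced chemokine that draws T cells through the receptor CXCR3.

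The sham library held 72860197 UMIs in 13952 barcodes and the SAH library 78497486 UMIs in 13766 barcodes. Of these, 17.6% and 15.0% were over the mitochondrial limit. Members together held 5602177 sham and 5211251 SAH UMIs. Their medians were 4737.5 and 4711 UMIs, and 1947.5 and 1938 genes, so depth was nearly equal. The median mitochondrial share was 4.98% in sham and 4.17% in SAH members. Scrublet marked 49 and 50 members as likely doublets. The libraries shared 76 barcode sequences, and no sequence was a member in both libraries.

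Members made up 15.0% [14.2, 15.9] of 6741 sham blood endothelial barcodes, those with Pecam1 and without Prox1, and 14.5% [13.7, 15.3] of 6868 SAH ones. The intervals overlapped. When every barcode was first thinned at random to 2000 UMIs, the shares were 12.4% and 13.1%, and the order was the other way round. No direction is therefore given for the share. The bead selection can also set such shares.

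The genes of the rule describe how the members were chosen. Upp1 carried most of the selection: 82.9% of sham and 85.7% of SAH members had a Upp1 UMI, and in 169 and 189 members it was the only gene of the 4 detected. Kit was detected in 54.1% and 45.8%, Pde1c in 40.5% and 40.3%, and Inhbb in 28.6% and 35.7%. The most frequent number of these genes in a member was 2, in 506 sham and 476 SAH members, and 41 and 50 held all of them. Members without a Kit UMI, 465 and 539 cells, thus belong to the population through the other genes.

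The 4 summed genes form a range and not a gap. Barcodes with 1 UMI, just outside the limit, numbered 493 in sham and 523 in SAH, and those with exactly 2 numbered 309 and 302. Aqp1, which the rule did not use, stood at 1581 and 1333 CPM just outside and at 1976 and 1958 CPM just inside. CPM is the gene's UMIs in the summed cells, scaled to a total of 1000000. With 5 or more rule UMIs Aqp1 reached 2259 and 2946 CPM, but those cells were also deeper, with medians of 6181 and 6131.5 UMIs against 3904 and 3683 at exactly 2. Cxcl9, which the rule did not use either, was at 241 CPM in sham with 1 UMI and at 135 CPM with exactly 2. In SAH it was at 324 and 349 CPM there. With 5 or more rule UMIs Cxcl9 was at 211 CPM in sham and 928 CPM in SAH.

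In the mouse build GRCm38 (mm10), with the GENCODE vM21 annotation, Kit lies on the plus strand of chromosome 5 at 75574916 to 75656722 and Aqp1 on the plus strand of chromosome 6 at 55336432 to 55348555. Pde1c also lies on chromosome 6, on the minus strand at 56069804 to 56569103. Upp1 occupies 9118103 to 9136170 on the plus strand of chromosome 11, Inhbb 119415465 to 119422248 on the minus strand of chromosome 1, and Cxcl9 92321347 to 92328079 on the minus strand of chromosome 5. All 6 are protein-coding, and UMIs were counted per gene from tags at the 5′ end.

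Kit was at 177 CPM in sham and 138 CPM in SAH members. Upp1 was at 396 and 436 CPM, Inhbb at 86.0 and 111 CPM, and Pde1c at 107 and 110 CPM. None of these levels, which the rule itself shaped, differed by 1.5-fold between the libraries. In the other blood endothelial barcodes Kit stood at 67.2 CPM in sham and 48.9 CPM in SAH, again lower in the SAH library.

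Aqp1 was at 2176 CPM in sham and 2620 CPM in SAH members, 1.204-fold [1.17, 1.23]. It was widely spread: after thinning to 2000 UMIs, 86.2% of 987 sham and 88.9% of 936 SAH members held a UMI, against 19.3% and 22.2% of fibroblastic barcodes, a class that should lack it. Without thinning the member shares were 93.5% and 95.5%. Thinning left out 27 sham and 59 SAH members. Among the compared vessels Aqp1 was next highest in the arterial group, defined by at least 2 UMIs of Gja5 and Sema3g, at 1558 and 1925 CPM, and in the Aqp7 group, at 1515 and 1460 CPM. The group with at least 2 UMIs of Col13a1 and Esm1 had 982 and 1120 CPM.

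Cxcl9 was at 210 CPM in sham and 591 CPM in SAH members, 2.82-fold [2.64, 3.02] higher. Unlike Aqp1 it came from few cells: 10 cells held 58.8% of its sham and 31.4% of its SAH UMIs. After thinning, 10.1% of sham and 22.97% of SAH members held a Cxcl9 UMI, against 5.99% and 16.0% of fibroblastic barcodes. Fibroblastic cells make this chemokine too, so their share is no clean background.

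**Figure D1:**
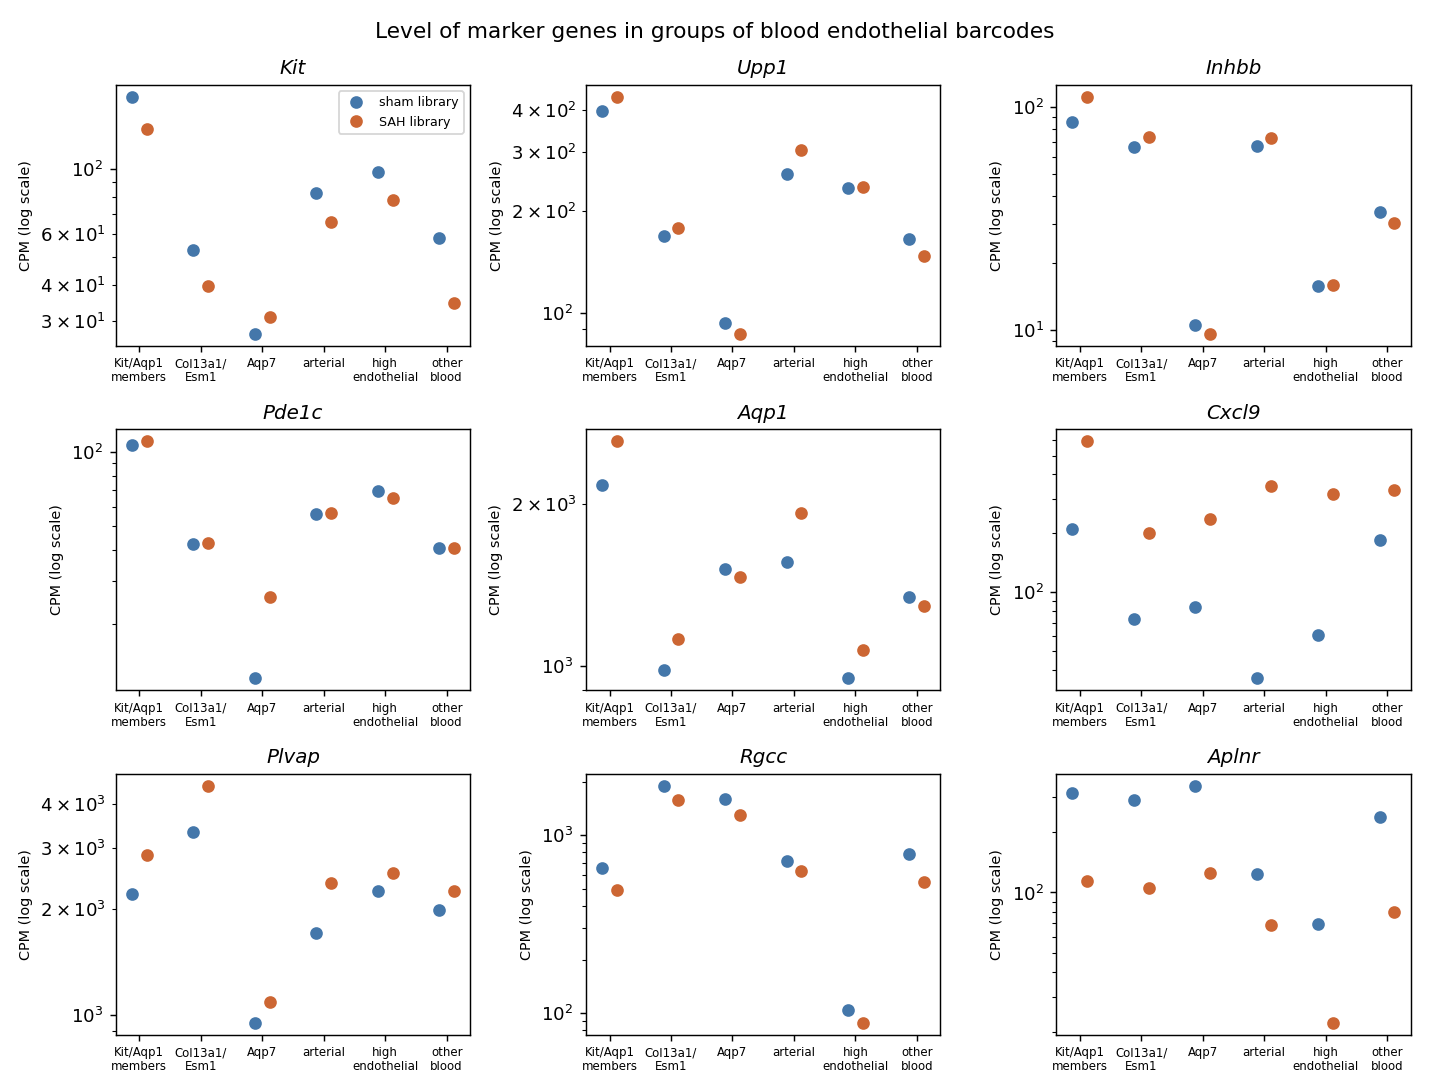
Levels in CPM (log axis, its range set for each gene) of 9 genes in Kit and Aqp1 members and in 5 other groups of blood endothelial barcodes; each point is 1 library, blue for sham and orange for SAH. Kit, Upp1, Inhbb and Pde1c are highest in members because the rule selected them, Aqp1 is also highest there in both libraries (2176 and 2620 CPM), and Aplnr is lower in the SAH library in every group shown.

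Genes other than those of the rule that stood highest in members, relative to all other blood endothelial barcodes, were ranked by the smaller of the fold in sham and the fold in SAH. These genes describe the population and are not a test, since the members were chosen from the same cells. Of 2681 genes with at least 50 CPM in members of each library, 10 were at least 1.5-fold higher and 38 at least 1.5-fold lower in members of both. Fscn1, an actin-bundling protein, led with 184 against 88.9 CPM in sham and 111 against 53.0 CPM in SAH. Cxcl9 and Aqp1 came next, with 1.91-fold and 1.98-fold for Cxcl9 and 1.87-fold and 2.07-fold for Aqp1. Thbs1 (thrombospondin 1), the protease inhibitor Serpine2, the nucleic acid sensor Zbp1, Ms4a6b, the matrix peroxidase Pxdn and the apelin receptor Aplnr followed, each at least 1.53-fold higher in both libraries. Tox2, N4bp3, Mcam, Ifi204 and St8sia4 completed the genes named, at 1.46-fold to 1.49-fold in sham and 1.47-fold to 1.83-fold in SAH. Several of them were as high or higher in a single other group. Aplnr was at 342 and 126 CPM and Pxdn at 124 and 94.4 CPM in the Aqp7 group, against 314 and 114 CPM and 89.3 and 85.2 CPM in members. Fscn1 stood at 184 and 103 CPM in the Aqp7 group. In the arterial group Mcam was at 254 and 156 CPM, against 233 and 143 CPM in members, and Ms4a6b at 124 and 113 CPM, against 100.0 and 122 CPM. Aqp1, Cxcl9, Thbs1 and Zbp1 were higher in members of both libraries than in the Col13a1 and Esm1, Aqp7 and arterial groups.

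The low end held markers of other node cells. Glycam1, the mucin of high endothelial venules, was at 1728 against 12056 CPM in sham and at 944 against 11879 CPM in SAH. Ccl21a, Serpina1e and Pglyrp1 were 0.22-fold to 0.37-fold of the other vessels in both libraries. The fatty acid transporter Cd36 and the retinol-binding protein Rbp7 were 0.31-fold to 0.45-fold. Cd36 was at 2189 and 3546 CPM in the Aqp7 group. Rbp7 was at 902 and 1110 CPM in the Col13a1 and Esm1 group, against 376 and 427 CPM in the Aqp7 group. Mustn1, Tagln, Col1a1, Col1a2, Col3a1, Serping1, Ehd4, Cst3 and Mgll were also among the 15 lowest.

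Of 25 capillary genes, 24 passed a mean of 10 CPM in members. In all 8128 genes passed this limit, so it shows expression only and cannot settle the capillary label. Plvap, the diaphragm protein of fenestrae and caveolae, was at 2208 and 2863 CPM, and Gpihbp1, which anchors lipoprotein lipase in capillaries, at 384 and 560 CPM. Rgcc, at 651 and 495 CPM in members, was higher in the Col13a1 and Esm1 group (1894 and 1574 CPM) and in the Aqp7 group (1592 and 1303 CPM). The 7 pan-endothelial markers, Cdh5 and Tie1 among them, summed to 3829 CPM in both libraries.

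Markers of other cell types and of other vessels differed widely in their sums in members. None of 7 mast cell markers had a single UMI in members of either library, although Kit is a mast cell receptor; a count of 0 is read here with a limit of 3 UMIs per library, a one-sided bound. T and NK cell markers summed to 18.2 CPM in sham and 17.3 CPM in SAH members, and the 4 B cell markers analysed to 17.3 and 20.7 CPM. Fibroblastic markers summed to 1114 and 1773 CPM, against 22810 and 23247 CPM in fibroblastic barcodes, and 8 of 9 were over 10 CPM in each library. The 8 lymphatic markers summed to 1050 and 2471 CPM, of which Ccl21a made up 955 and 2282 CPM. The 7 high endothelial markers summed to 3991 and 3639 CPM, far below the 51839 and 52491 CPM of the high endothelial group. The sums were 1123 and 1409 CPM in the Col13a1 and Esm1 group and 996 and 1077 CPM in the Aqp7 group. They were 1563 and 2316 CPM in the arterial group and 2884 and 3361 CPM in the remaining blood endothelial barcodes, so members stood above all 4. Of the member sums Glycam1 made up 1728 and 944 CPM, with 10 cells holding 55.0% and 40.9% of it. Enpp2, which makes lysophosphatidic acid, made up 1839 and 2267 CPM and was widespread, in 85.0% and 92.0% of thinned members against 69.2% and 71.7% of fibroblastic barcodes. Venule markers summed to 966 and 1048 CPM in members. Their sums were 761 and 856 CPM in the Col13a1 and Esm1 group and 543 and 707 CPM in the Aqp7 group. In the arterial group they were 481 and 624 CPM. In the remaining blood endothelial barcodes they were 959 and 1150 CPM, and in the high endothelial group 4337 and 4824 CPM. In members, mural markers summed to 272 and 254 CPM, artery markers to 647 and 621 CPM and salivary epithelial markers to 215 and 340 CPM. Myeloid markers summed to 153 and 55.5 CPM. Erythrocyte and platelet markers summed to 1846 and 29.6 CPM, and 10 cells held 99.6% of the sham Hbb-bs UMIs. The part of these cells or of free RNA in the differences below was not tested. In an alternative, members holding markers of other cell types were left out. These had at least 2 UMIs summed over Ptprc, Cd79a, Cd3e, Col1a1, Dcn, Pdgfra, Rgs5, Pdgfrb, Lyve1 and Reln. Members with a sum of 1, or with other genes such as Ccl21a or Glycam1, stayed. The number of interferon-stimulated genes called higher was then 29, with a list median of 0.97. The complement, immediate early and cell cycle medians were 0.69, -0.29 and -0.77.

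Between the libraries, 8128 genes had a mean of at least 10 CPM in members, leaving out the genes of the rule. A gene was called at a fold of at least 1.5. By this limit 544 genes (6.69%) were higher and 362 (4.45%) lower in the SAH library, and the median log2 fold over all of them was 0.00. These shares are the background for each list below, where a list's count and median are given as a description.

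Interferon-stimulated genes, which restrict viruses and sense foreign nucleic acids, were higher in the SAH library as a group. Of 33 that passed the expression limit, 29 were called higher, against 6.69% of all genes, and none was called lower. Their median log2 fold was 1.08, and the lowest was 0.34. Irf7, the transcription factor that amplifies type I interferon production, was at 122 CPM [113, 132] in sham and 589 CPM [569, 611] in SAH members, 4.81-fold [4.43, 5.24]. The antiviral synthetase Oas1a was at 9.82 and 52.0 CPM, 5.30-fold [3.95, 7.21]. Rsad2 (viperin) was at 102 and 368 CPM, 3.61-fold [3.29, 3.98], and the RNA-binding Ifit1 at 73.9 and 242 CPM, 3.27-fold [2.93, 3.66]. The nuclease Isg20 and the synthetase-like Oasl1 were 3.31-fold and 3.59-fold higher. The ubiquitin-like Isg15, which was picked after its values were seen, was at 230 and 652 CPM. The smallest differences, also picked by value, were those of the RNA sensor Dhx58, at 26.8 and 34.0 CPM, and of Trim30a, Ddx58 and Irf9, whose log2 folds were 0.35 to 0.47.

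For these genes the promoter windows of the RefSeq table (GRCm38.p6) from 250 bases before to 50 bases after the gene start were searched on both strands for GAAA, any 2 bases and GAAA again, the core of the element bound by interferon regulatory factors; overlapping matches were allowed. Of all 32851 windows 3.44% held it, and of all 27025 genes 3.99% held it in at least 1 window. Of the 35 interferon-stimulated genes in the files 26 had a window, and 14 of those (53.8%) held the motif in at least 1 window. In the interferon-gamma list described below it was 11 of 18 genes (61.1%), and in the immediate early list 1 of 21 (4.76%). The windows of 4 genes with large folds are shown 5′ to 3′ on the gene's strand, with matches in capitals, because they run from no match to 2. They are Irf7 at chr7:141266375-141266674, minus strand, without a match, Rsad2 at chr12:26456403-26456702, minus strand, with 1 match, Ifit1 at chr19:34640639-34640938, plus strand, with 2, and Oas1a at chr5:120907476-120907775, minus strand, with 2 that overlap.
Irf7: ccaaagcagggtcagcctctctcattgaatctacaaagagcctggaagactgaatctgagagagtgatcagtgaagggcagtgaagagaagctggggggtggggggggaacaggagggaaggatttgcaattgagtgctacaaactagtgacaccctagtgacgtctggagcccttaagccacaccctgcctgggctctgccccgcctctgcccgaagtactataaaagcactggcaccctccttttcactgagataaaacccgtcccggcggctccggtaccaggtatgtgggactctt
Rsad2: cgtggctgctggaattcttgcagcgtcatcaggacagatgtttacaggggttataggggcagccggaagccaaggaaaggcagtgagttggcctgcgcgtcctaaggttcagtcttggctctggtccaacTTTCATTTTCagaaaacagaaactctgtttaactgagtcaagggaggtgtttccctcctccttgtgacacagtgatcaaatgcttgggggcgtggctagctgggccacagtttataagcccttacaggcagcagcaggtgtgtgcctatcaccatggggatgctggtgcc
Ifit1: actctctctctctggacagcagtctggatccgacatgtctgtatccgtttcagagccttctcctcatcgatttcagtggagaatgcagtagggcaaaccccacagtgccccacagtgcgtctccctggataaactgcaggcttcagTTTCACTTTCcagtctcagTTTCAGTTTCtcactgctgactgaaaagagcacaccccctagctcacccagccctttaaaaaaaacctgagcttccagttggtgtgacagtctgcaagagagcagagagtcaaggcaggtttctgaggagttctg
Oas1a: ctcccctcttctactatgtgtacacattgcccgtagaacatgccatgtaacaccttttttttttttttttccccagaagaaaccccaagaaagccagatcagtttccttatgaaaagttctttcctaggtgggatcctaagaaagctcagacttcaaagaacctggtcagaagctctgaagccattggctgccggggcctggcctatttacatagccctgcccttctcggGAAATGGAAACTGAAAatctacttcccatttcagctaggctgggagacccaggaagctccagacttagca
In Ifit1 both matches are on the opposite strand, and they start 104 and 85 bases before the gene start. The Rsad2 match starts 120 bases before it. A match describes the letters of the window only, and Irf7, with one of the largest folds, had none in this window.

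The distribution over members differed as a whole. After thinning each member to 2000 UMIs, the summed UMIs of interferon-stimulated genes had a median of 12 in sham and 23 in SAH members. The sham 90th percentile was 24, close to the SAH median, and the SAH 10th percentile, 11, was close to the sham median. A UMI of Irf7 was found in 21.9% [19.3, 24.6] of sham and 60.1% [56.9, 63.3] of SAH members after thinning, against 3.07% and 18.4% of fibroblastic barcodes, and in 40.9% and 81.7% of members before thinning. For Rsad2 the thinned shares were 16.6% and 31.0%, against 0.89% and 2.27% of fibroblastic barcodes, and for Ifit1 12.5% and 26.1%, against 3.20% and 7.62%.

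**Figure D2:**
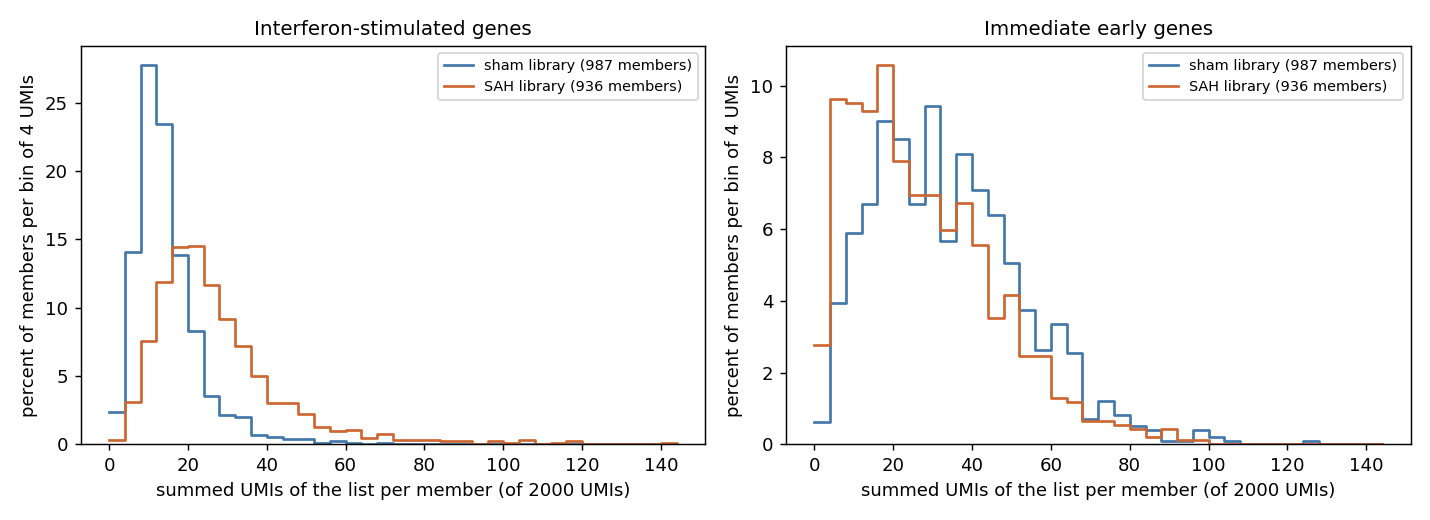
Distribution over members of the summed UMIs of interferon-stimulated genes (left) and immediate early genes (right) after thinning each member to 2000 UMIs, in bins of 4 UMIs, as percent of 987 sham (blue) and 936 SAH (orange) members. The interferon distribution is shifted as a whole, with medians of 12 and 23, and the immediate early distribution lies lower in SAH, with medians of 31 and 24.

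Genes more typical of interferon gamma, the GTPases of the GBP and IRG families and the CXCR3 ligands, were next. Of 22 that passed, 13 were called higher and none lower, with a median log2 fold of 0.70. Cxcl9 is described above. Cxcl10, the other CXCR3 ligand, was at 163 and 313 CPM, 1.92-fold [1.77, 2.08], and 10 cells held 65.4% and 44.5% of its UMIs. The guanylate-binding Gbp3 was at 52.5 and 106 CPM and Gbp4 at 89.8 and 178 CPM. Tgtp1 and Tgtp2, near-identical copies whose reads the counting could split, were 2.26-fold and 2.04-fold higher. The receptor chain Ifngr1 and the kinase that signals for it were not called, with Ifngr1 at 425 and 362 CPM and Jak1 at 319 and 332 CPM.

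MHC class I genes, which load peptides for CD8 T cells, had 7 of 20 called higher and a median log2 fold of 0.36. H2-T23, a non-classical class I chain, was at 302 and 845 CPM, 2.80-fold [2.65, 2.96], and H2-Q4 at 188 and 414 CPM. The immunoproteasome subunit Psmb8 was at 394 and 665 CPM and the proteasome activator Psme1 at 326 and 534 CPM. The classical chain H2-K1, looked up for contrast, went the other way, from 4999 to 3888 CPM, short of the limit. Class I genes are close copies of each other, so reads could be assigned unevenly among them. Of 6 class II genes, which present to CD4 T cells, only H2-Ab1 was called, at 64.3 and 104 CPM, and 10 cells held 19.4% and 20.8% of it.

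Complement genes had 6 of 12 called higher and 1 lower, with a median log2 fold of 0.56. C3, the hub of the cascade, was at 381 and 700 CPM, 1.84-fold [1.74, 1.94], and was found in 271 sham and 590 SAH members. C4b was at 65.9 and 155 CPM, but 10 cells held 39.8% and 25.9% of its UMIs. Fibroblastic marker sums moved the same way in members (1114 and 1773 CPM), and their part in the complement difference was not tested separately.

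**Figure D3:**
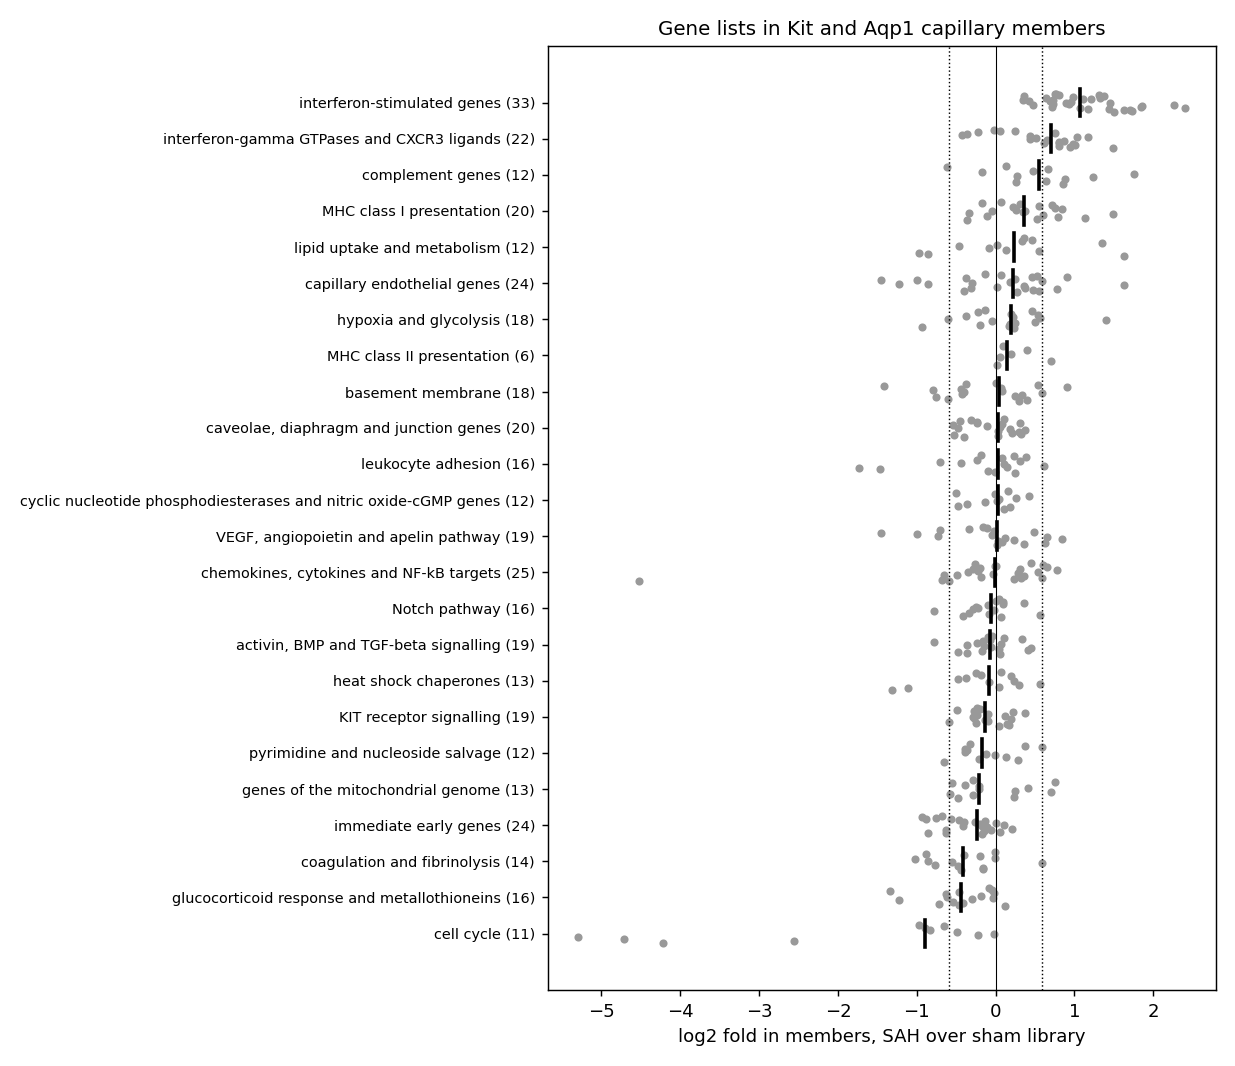
Log2 fold (SAH over sham) in members for each gene with a mean of at least 10 CPM (grey points) in 24 lists, with the list's median as a black bar, the number of genes in brackets, and dotted lines at 1.5-fold. Interferon-stimulated genes have the highest median (1.08) and the cell cycle list the lowest (-0.90).

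The pathways of the genes that mark these cells differed little. In the KIT list none of 19 genes was called higher and 1 lower, with a median log2 fold of -0.14. The ligand Kitl (stem cell factor) was at 271 and 279 CPM. The adaptor Shc1 was at 28.4 and 18.8 CPM and was the gene called lower, and Spred1, an inhibitor of RAS signalling, was at 132 and 94.4 CPM. The ubiquitin ligase Cbl was at 61.6 and 50.9 CPM.

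For activin B, the ligand made from Inhbb, the receptors and targets of the activin, BMP and TGF-beta list had none of 19 called higher and 1 lower, with a median of -0.07. The type I receptor Acvr1b, which serves activins, was at 12.3 and 8.83 CPM. The BMP co-receptors Eng and Acvrl1 were at 517 and 705 CPM and at 177 and 234 CPM, both short of the limit. Id2, a target of BMP signals, was the gene called lower, at 72.5 and 42.2 CPM, and the inhibitor Smad6 was at 31.1 and 24.2 CPM.

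In the list of phosphodiesterases and nitric oxide genes, to which Pde1c belongs, 0 of 12 genes were called, with a median of 0.03. The endothelial nitric oxide synthase Nos3 was at 39.3 and 52.6 CPM, and Pde4b at 94.1 and 67.5 CPM. In nucleoside salvage, the pathway of Upp1, 1 of 12 was called higher and 1 lower, with a median of -0.17. The lysosomal transporter Slc29a3 was at 8.93 and 13.4 CPM, Upp2, the other uridine phosphorylase, at 16.1 and 10.2 CPM, and the surface transporter Slc29a1 at 136 and 104 CPM.

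Aplnr and Apln, the apelin receptor and its ligand, were both lower. Aplnr, a receptor of sprouting and venous endothelium, was at 314 CPM [300, 329] in sham and 114 CPM [105, 124] in SAH members, 0.364-fold [0.331, 0.400]. After thinning, 38.1% of sham and 20.8% of SAH members held a UMI, against 0.68% and 0.63% of fibroblastic barcodes. Its ligand Apln, a tip cell gene, was at 23.4 and 11.7 CPM, with 10 cells holding 54.2% and 78.7%. Aplnr lies on chromosome 2 at 85136225 to 85139923. In the list of VEGF, angiopoietin and apelin genes 3 of 19 were called higher and 4 lower, against 4.45% of all genes called lower, with a median of 0.02. Angpt2 was at 20.0 and 12.1 CPM, Mcam at 233 and 143 CPM, Tie1 at 194 and 305 CPM and Vegfb at 12.9 and 23.03 CPM. The VEGF receptor Kdr was at 583 and 590 CPM.

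Capillary genes, a list that also holds Aplnr and Apln, were called in both directions, 4 higher and 4 lower of 24, with a median of 0.22. Cd36, which takes up fatty acids, was at 62.8 CPM in sham and 195 CPM in SAH members, 3.11-fold [2.75, 3.52], and after thinning 9.52% and 24.1% of members held a UMI, against 1.57% and 4.09% of fibroblastic and 51.3% and 47.5% of lymphatic barcodes. Lymphatic marker sums in members moved the same way (1050 and 2471 CPM), of which Ccl21a made up 955 and 2282 CPM. That list summed higher in fibroblastic barcodes (10519 and 15734 CPM) than in lymphatic ones (3007 and 4534 CPM). The part of lymphatic RNA in the Cd36 difference was not tested. The log2 fold of Cd36 was 1.64 in members and 1.39 in all other blood endothelial barcodes. It was 1.60 in the Col13a1 and Esm1 group, 0.70 in the Aqp7 group and 1.64 in the arterial group. Fabp4, a fatty acid carrier of capillaries, was at 2407 and 1327 CPM, 0.551-fold [0.536, 0.568]. Tcf15, a transcription factor that works upstream of Cd36 and Fabp4 in heart endothelium, was at 58.9 and 111 CPM. Kcne3 was at 30.5 and 13.0 CPM. In the lipid list 2 of 12 were called higher and 2 lower, with a median of 0.24. There Angptl4, an inhibitor of lipoprotein lipase, was at 10.5 and 26.9 CPM, and Fabp5 at 304 and 155 CPM. Fabp4 was far more abundant in the Aqp7 group, at 35331 and 34855 CPM, and in all other blood endothelial barcodes together it stood at 2725 and 3456 CPM, higher in SAH.

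Barrier and vessel wall genes stayed mostly within the limit. None of 20 caveolar, diaphragm and junction genes was called, with a median of 0.03: Cdh5 (VE-cadherin) was at 1064 and 764 CPM, Esam at 794 and 547 CPM, and Cav1 at 634 and 479 CPM, while Plvap was 1.30-fold [1.27, 1.33] higher. In the Notch list 1 of 16 was called, the ligand Jag1 at 37.0 and 21.5 CPM. Of 18 basement membrane genes 2 were called higher and 4 lower, with Agrn at 52.5 and 98.6 CPM, Col15a1 at 473 and 311 CPM and Fn1 at 63.7 and 24.0 CPM, where 10 cells held 48.2% and 45.6% of Fn1.

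Adhesion molecules for leukocytes had 1 of 16 called higher and 3 lower, with a median of 0.03. Madcam1 (36.4 and 10.9 CPM) and Selp (19.6 and 7.10 CPM), adhesion molecules of venules, were called lower, as was the chemokine scavenger Ackr1, a venular gene, at 89.1 and 39.9 CPM. They came from few cells: 10 cells held 81.4% and 75.4% of Madcam1 and 31.1% and 39.9% of Ackr1. Glycam1 was lower in the same direction (1728 and 944 CPM). Without the members that held Ackr1, Selp or Madcam1, an alternative chosen after seeing the data, the number of interferon-stimulated genes called higher was 29, with a list median of 1.00.

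Chemokine, cytokine and NF-kB genes had 4 of 25 called higher and 4 lower, with a median of -0.01. Nfkb2 was at 55.7 and 87.7 CPM and the inhibitor Nfkbie at 24.1 and 41.3 CPM, while Cxcl1, which draws neutrophils, was at 149 and 93.1 CPM. Ccl20, the CCR6 ligand, was at 501 and 21.7 CPM, but 10 cells held 85.5% of the sham and 82.3% of the SAH UMIs, and the lymphatic class was 2.58 times as high in CPM as members.

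Coagulation genes had 1 of 14 called higher and 4 lower, with a median of -0.42. Plaur, the urokinase receptor, which takes part in the breakdown of clots, was at 45.5 and 25.1 CPM. Thbs1 was at 169 and 91.1 CPM and Tfpi2 at 29.1 and 17.1 CPM, and F8 was called higher, at 26.6 and 39.9 CPM. The hypoxia and glycolysis list had 1 of 18 called higher and 2 lower, with the glucose transporter Slc2a1 at 40.0 and 20.9 CPM and Pgk1 at 6.60 and 17.5 CPM.

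Immediate early genes, which respond to stimuli including tissue dissociation, had none of 24 called higher and 7 lower, with a median of -0.23, equal to the lower quartile of all genes tested (-0.23). Jund was at 1919 and 1236 CPM, Fosl2 at 246 and 136 CPM, Myc at 41.8 and 21.9 CPM and Rhob at 510 and 301 CPM. Fos and Egr1, looked up for contrast, were at 1815 and 1614 CPM and at 891 and 856 CPM, within the limit. Per member, the thinned list sum had a median of 31 UMIs in sham and 24 in SAH.

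Genes of the glucocorticoid response and the metallothioneins had none of 16 called higher and 5 lower, with a median of -0.44. Cebpb, a transcription factor of acute responses, was at 195 and 77.1 CPM, 0.395-fold [0.351, 0.443], and after thinning 20.0% and 9.51% of members held a UMI, below the 63.3% and 36.8% of fibroblastic barcodes. The clock gene Per1 was at 95.5 and 58.1 CPM, and the metal-binding Mt2 at 42.3 and 18.0 CPM, with 10 cells holding 64.1% and 44.7%. Of 13 heat shock chaperones 2 were called lower, Hspa1a at 42.5 and 17.1 CPM and its near-copy Hspa1b at 24.1 and 11.1 CPM, while Hspb1 was at 732 and 1083 CPM. Of the 13 genes of the mitochondrial genome 2 were called higher and none lower, while their median was -0.21, with mt-Atp6 at 12992 and 8853 CPM and mt-Atp8 at 66.6 and 112 CPM, and the per-member sum had a median of 99 UMIs in sham and 83 in SAH. The part of sample handling in these lists was not tested.

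Cell cycle genes had none of 11 called higher and 8 lower, with a median of -0.90, but they came from few cells. The kinase Cdk1 was at 33.9 and 5.76 CPM, with 52.1% of its sham UMIs in 10 cells. Top2a was found in 34 sham and 7 SAH members and Birc5 in 43 and 4. The histone variant H2afz, present in many members, was at 577 and 295 CPM, and Stmn1 at 130 and 69.5 CPM. With each cell weighted equally the list median was -0.44.

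Among the 12 highest folds over all genes, 6 were interferon-stimulated genes of the list or the interferon-induced Slfn2, at 42.7 and 135 CPM. Cd36, Ccdc85b, Trim37, Gstp1 and Amy1 were also among them. Ccdc85b, a coiled-coil protein on chromosome 19, was at 12.9 CPM in sham and 119 CPM in SAH members, 9.27-fold [7.26, 12.01]. Trim37, a ubiquitin ligase, was at 21.6 and 110 CPM, and Gstp1, a glutathione transferase, at 15.9 and 55.5 CPM. The salivary gene Amy1 was at 17.0 and 52.6 CPM, with 10 cells holding 30.5% and 37.2%.

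The 12 lowest genes differed in how many cells carried them. Found in 124 to 733 members of a library were Aplnr, Cebpb, Tmem252, Hypk, Spint2, Odc1 and Rpa3. Tmem252, a membrane protein, was at 589 CPM [569, 609] in sham and 256 CPM [243, 270] in SAH members, 0.435-fold [0.408, 0.464], and 54.1% and 33.2% of thinned members held a UMI, against 1.57% and 0.88% of fibroblastic barcodes. Hypk, a ribosome-associated chaperone, was at 141 and 57.8 CPM, the protease inhibitor Spint2 at 134 and 60.6 CPM, the polyamine enzyme Odc1 at 112 and 54.1 CPM and the replication factor subunit Rpa3 at 52.3 and 25.7 CPM. By contrast Elane, neutrophil elastase, had 349 sham UMIs, all in 1 cell, and 0 in SAH. Coch was at 51.2 and 8.83 CPM with 89.2% of the sham UMIs in 10 cells, and Rgs2 at 52.5 and 25.9 CPM with 40.8%. Of genes over 10 times higher in another class, Saa3, an acute phase protein, was at 7.32 and 257 CPM, with 83.2% of the SAH UMIs in 10 cells and a mural level 15.4 times that of members.

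**Figure D4:**
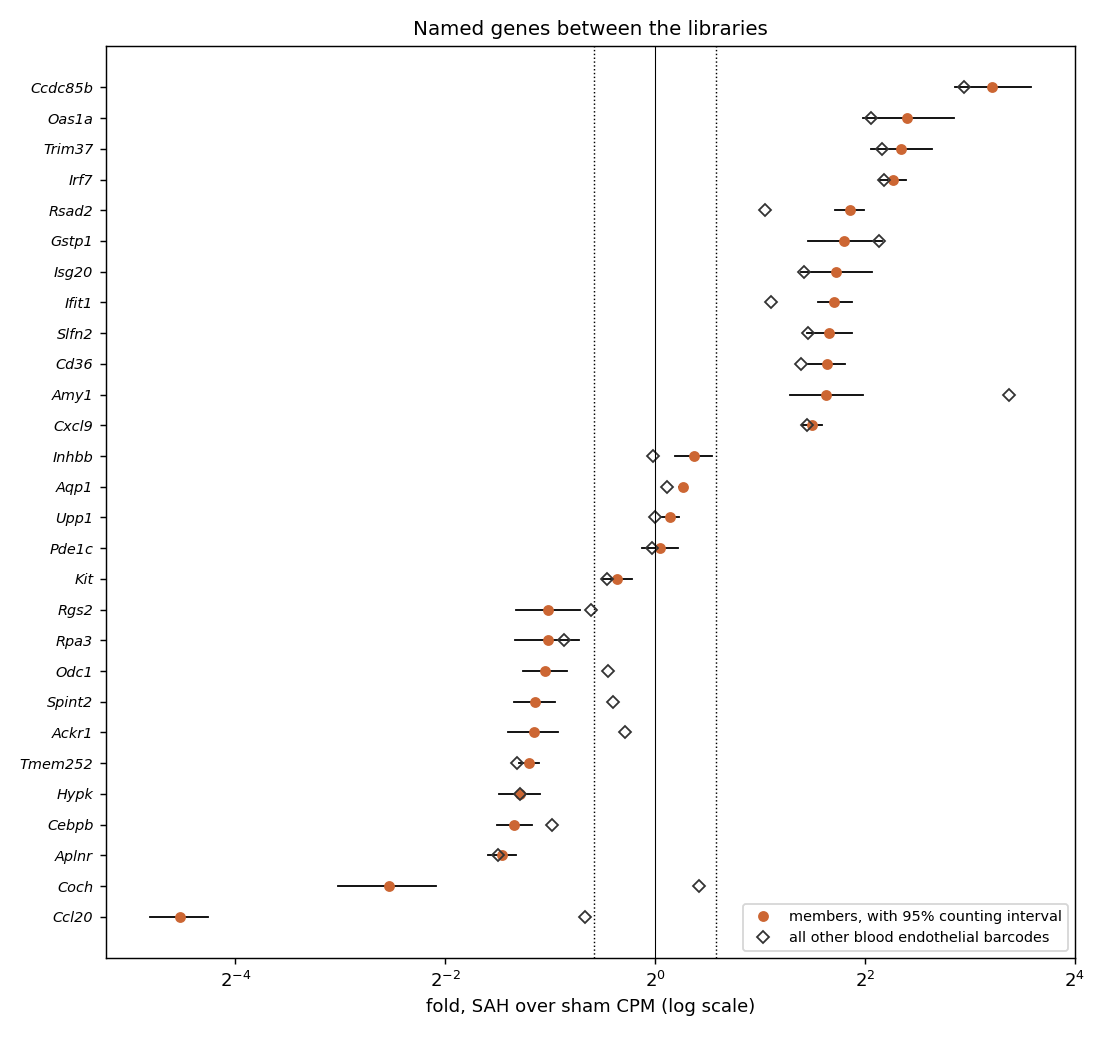
Fold of SAH over sham CPM (log axis, dotted lines at 1.5-fold) for genes among the 12 highest and 12 lowest folds and for the 6 markers, with exact 95% counting intervals in members (orange, black bars) and the fold in all other blood endothelial barcodes (open diamonds); Elane is left out, since it had 0 UMIs in SAH. Members and other vessels lie close for Irf7 (4.81-fold in members), Hypk and Aplnr and apart for Rsad2, Coch, Ccl20 and Amy1.

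The same genes and lists were then read in the other vessels of these 2 libraries. The median log2 fold of interferon-stimulated genes was 1.08 in members, 0.72 in all other blood endothelial barcodes, 0.64 in the Col13a1 and Esm1 group, 1.03 in the Aqp7 group and 0.80 in the arterial group. Irf7 had a log2 fold of 2.27 in members and of 2.07 to 2.20 in these other groups. Rsad2 stood at 1.85 in members and 0.91 to 1.31 in the others, and Ifit1 at 1.71 against 0.79 to 1.59. In sham members Rsad2 was lower (102 CPM) than in the Col13a1 and Esm1 group (189 CPM), and in SAH the levels were 368 and 356 CPM. Whether these differences between vessels exceed replicate spread cannot be told with 1 library per group.

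For Aplnr the log2 fold was -1.46 in members and -1.50 in the other blood endothelial barcodes, and for Tmem252 it was -1.20 and -1.32. Ccdc85b (3.21 and 2.95), Trim37 (2.34 and 2.16) and Hypk (-1.29 and -1.29) had nearly the same fold in members as elsewhere. Odc1 (-1.05 and -0.45), Spint2 (-1.15 and -0.40) and Ackr1 (-1.16 and -0.28) had lower values in members than in the other vessels pooled. In the Aqp7 group, however, Odc1 was at -0.99, and Spint2 was at -0.81 there, -0.67 in the Col13a1 and Esm1 group and -0.68 in the arterial group. Coch had the opposite sign, -2.54 in members and 0.42 in the others pooled. Complement genes had a smaller median in members (0.56) than in the other vessels (0.86), and MHC class I genes an equal one (0.36 and 0.36). The glucocorticoid and metallothionein median was -0.44 in members and -0.22 elsewhere, and that of the cell cycle list -0.90 and -0.84.

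Members differed among themselves as well. Members with a Kit UMI had 215 CPM of Cxcl9 in sham and 667 CPM in SAH, and those without 203 and 521 CPM, while Aqp1 was nearly equal (2228 and 2623 CPM against 2108 and 2616 CPM). Those with an Inhbb UMI had more Aqp1, 2892 and 3119 CPM, and less Glycam1 in sham, 1039 CPM. Those in which Upp1 was the only rule gene had less Aqp1, 1635 and 1922 CPM, and more Cxcl9, 342 and 932 CPM. Cxcl9 was at 92.4 and 151 CPM in members without Upp1. Irf7 was at 118 and 607 CPM with Kit and at 128 and 572 CPM without it. These subsets are set by the rule and are a description only. For Cxcl9 they also rest on few cells, since 10 cells held 58.8% of its sham UMIs. Splits by a rule gene also split by depth, with medians of 4997 and 4827.5 UMIs with Kit and 4453 and 4536 without.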

How the data were processed

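Cell Ranger 5.0, STAR, Seurat 3.0.2 and mm10 are named in the submitters' processing notes, with no role given. The deposited matrices hold UMI counts that were not normalised, in barcodes of at least 502 UMIs in sham and 501 in SAH. The annotation release and the counting of introns are not given in the sources used here. Counts of rows with the same symbol were summed.

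Counts of members were summed per library and divided by the total (CPM). Folds are SAH CPM divided by sham CPM, and their 95% intervals come from the exact binomial distribution of a gene's UMIs given their sum. Shares have exact Clopper-Pearson intervals and CPM exact Poisson intervals. The fold script was tested on simulated data. Doublets were kept in the main result and left out in an alternative (Scrublet, expected rate 0.1). Shares of cells with a UMI were compared after thinning to 2000 UMIs. The 12 genes at each end were the largest and smallest folds where the larger CPM was at least 50, adding 0.5 counts for ranking and leaving out the rule genes, ribosomal protein, mitochondrial, antigen receptor, globin and unnamed predicted genes, Xist and genes on Y. Genes over 10 times higher in another class were set apart and 3 of them named, and up to 6 genes of a list were named by size. Genes named outside this rule are marked in the text or are textbook members of their list, chosen after their values were seen. Some results are not reported here. The members and the lists were chosen with earlier results of these data known.

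Alternatives changed the cell filter, rule, doublets, depth, marker content, scaling (TMM, edgeR 4.0.16 in R 4.3.3), cell weights and expression filter. Python 3.11.15, numpy 2.4.6, scipy 1.17.1, pandas 2.3.3, scanpy 1.11.5, anndata 0.12.19 and matplotlib 3.10.9 were used.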

Additional observations from a re-analysis of the deposited data

Results flagged for a closer look

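S100a9 and S100a8, calcium-binding proteins of neutrophils, went in opposite directions in members and in the other blood endothelial barcodes. The log2 fold of S100a9 was -1.89 in members and 1.85 in the others, and that of S100a8 was -1.83 and 1.79. The difference was not tested. In members 6 sham and 8 SAH cells held S100a9, 7 and 8 held S100a8, and the highest single cell held 350 of the sham and 68 of the SAH UMIs of S100a9.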

How the results depend on the processing

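No paired analysis was possible because each group is 1 library. Of 27 named genes past 1.5-fold, 23 stayed past it in every setting that gave a value, up to 10 for each, and Coch, Rgs2, S100a8 and S100a9 did not. Of 319 single gene folds 251 stayed near the reported value, 63 moved and 5 reversed. The log2 fold of Ccl20 ran from -5.19 to -1.08, that of Saa3 from 4.21 to 7.22, that of Cxcl9 from 1.15 to 2.20, that of Amy1 from 0.88 to 1.72 and that of Ifit1 from 1.11 to 1.72, with the thinned value at the low end for Amy1 and Ifit1 and nearest 0 for Ccl20. Of 288 list medians under the alternatives 275 stayed near the reported value and 265 kept their sign, since lists with medians near 0 crossed it. Member shares and numbers of called genes were less stable: of 38 such values 23 stayed near the reported value and 15 moved. TMM factors were 0.995 and 1.00. The member share of blood endothelial barcodes was 10.5% in sham and 10.1% in SAH with a rule sum of at least 3, 11.4% and 10.9% with at least 2 rule genes, 12.4% and 13.1% thinned, 12.6% and 10.4% without members holding markers of other cell types, and 12.5% and 12.9% without members holding venular genes, the last added after seeing the data. With every gene that had at least 1 UMI in each library 2034 genes were higher and 1544 lower, since more sparse genes enter. With a mean of at least 50 CPM, where fewer genes were tested, 183 and 102 were. After thinning 594 genes were lower, and the medians were 0.83 for interferon-stimulated genes, 0.85 for complement, -0.23 for glucocorticoid genes, -0.10 for coagulation and -0.39 for the cell cycle. The glucocorticoid median was -0.25 with at least 2 rule genes. The cell cycle median was -0.70 without venular members, -0.44 with equal weights and -2.56 with the 1 UMI filter. Reversed log2 folds were Coch 0.26, Rgs2 0.13, S100a9 1.48 and S100a8 1.90 after thinning, and S100a9 0.39 without members holding markers of other cell types. The causes were not tested. Depth limits genes near 10 CPM, about 50 UMIs a library, and with 1 library per group no setting stands in for replication.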
